A study of Mus musculus with 3 samples.

Results

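The genes described are 29 that encode proteins of stress granules and related RNA-binding proteins. They were taken by name from a fixed list with no cut on their levels, though the list was chosen with earlier results of these data known. All 29 were found among the 17126 gene names of the 3 deposited tables. Levels were read in interstitial cells of the mouse heart that had been sorted on Lin28 and cKit at the cell surface. The first of 3 groups carried neither protein (Lin28-/cKit-, called Lin28-negative here), the second carried Lin28 without cKit (Lin28+/cKit-) and the third carried both (Lin28+/cKit+). Each group is a single library of the Chromium v3.1 chemistry, which counts transcripts from their 3' ends in droplets. The heart tissue was digested with collagenase II and spun at low speed to remove cardiomyocytes before the sort. No source used here gives the number of animals or their strain, age and sex. With 1 library per group no test between groups is possible, and every interval below covers counting error only.

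Stress granules are assemblies of mRNA and protein that form in the cytoplasm when the start of translation stalls, typically after phosphorylation of the initiation factor eIF2 alpha. G3BP1 and its paralog G3BP2 bind RNA and seed the assembly, CAPRIN1 and USP10 compete for G3BP, and TIA1 and its paralog TIAL1 join through a prion-like domain. Most of these proteins also serve unstressed cells in translation, mRNA decay or splicing, so a transcript level does not report whether granules were present.

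The libraries held 3976, 681 and 1176 cells in the order above, with a median of 8630, 9628 and 8068.5 UMIs per cell (unique molecular identifiers, each marking 1 captured transcript). Of their cell barcodes, 0 were shared between the Lin28-negative and the Lin28+/cKit- library, 8 between the Lin28-negative and the Lin28+/cKit+ library, and 1 between the Lin28-positive pair. Clusters were named from markers, and no member was among the 1997 clustering genes. The Lin28-negative library held 1948 fibroblast-like and 925 endothelial-like cells. The Lin28+/cKit- library held 241 endothelial-like and 275 macrophage-like cells, and the Lin28+/cKit+ library 429 and 609. All 10 markers of the type were present in every fibroblast-like and macrophage-like cluster, and 7 to 10 in the endothelial-like ones. The Lin28-negative library held only 18 macrophage-like cells and the Lin28-positive libraries 19 and 6 fibroblast-like cells, too few for a comparison, for which 50 cells were required. Levels are given in CPM (a gene's UMIs over the population's summed UMIs, on the usual scale), and were compared between populations for 1 gene at a time, not between genes.

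Promoters of the G3bp and Tia pairs are shown first, because within each pair it was 1 paralog that differed most between cell classes. The lines give the 120 bases upstream of the outermost annotated start (RefSeq or GENCODE vM21), from RefSeq on GRCm38.p6, 5′ to 3′ on the gene's strand. They cover chr11:55469565-55469684 (+) for G3bp1, chr5:92083720-92083839 (-) for G3bp2, chr6:86404099-86404218 (+) for Tia1 and chr7:128461718-128461837 (-) for Tial1. Capitals mark a CCAAT box (CCAAT) or a GC box (GGGCGG) on either strand.
G3bp1: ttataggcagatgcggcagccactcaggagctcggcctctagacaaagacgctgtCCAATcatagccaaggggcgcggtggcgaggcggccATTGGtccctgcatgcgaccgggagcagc
G3bp2: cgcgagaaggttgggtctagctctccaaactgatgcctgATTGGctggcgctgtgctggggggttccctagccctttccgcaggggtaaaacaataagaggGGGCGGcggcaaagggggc
Tia1: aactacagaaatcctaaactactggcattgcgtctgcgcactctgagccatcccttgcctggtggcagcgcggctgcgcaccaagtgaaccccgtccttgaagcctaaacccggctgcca
Tial1: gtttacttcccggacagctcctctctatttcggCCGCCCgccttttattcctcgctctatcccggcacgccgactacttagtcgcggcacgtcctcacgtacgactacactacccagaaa
Within these windows G3bp1 had 2 CCAAT boxes and no GC box, G3bp2 had 1 of each, Tial1 had 1 GC box, and Tia1 had neither.

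RefSeq promoter entries were available for 25 of the 29 genes, and for each the 250 bases upstream of the start nearest the GENCODE start were searched on both strands. A GC box was found in 20 of 25 (80%), against 32.7% of 32851 promoter windows of the same length. The palindromic motif of NRF1 stood upstream of Fmr1, Fxr2, Atxn2l and Pum2, 4 of 25 (16%) against 3.74% of all windows. CCAAT was found in 8 (32%) against 33.85%, the E-box CACGTG in 4 (16%) against 6.02%, TATAAA in 2 (8%) against 12.4%, and the cyclic AMP element TGACGTCA in 0 against 1.55%. None of these motifs contains another. The background held all RefSeq entries of full length, with several for some genes, expressed here or not. It was not matched to the members in expression or base content, so the shares do not show a trait particular to this set. A match is only a match of letters in this window.

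All 29 genes were detected. Over the 3 libraries the median member had 4076 UMIs, against 767 for the 14099 genes with at least 20 UMIs. The scarcest was Hdac6, a cytoplasmic deacetylase that carries ubiquitinated proteins along microtubules, with levels between 1.68 and 4.17 CPM in the 6 populations compared. Across the 6 class and library populations the highest level of a member was a median of 1.68 times its lowest (range 1.31 to 3.90 for the 28 members with enough UMIs), against 2.12 times for 6932 genes measured in the same way. The ratio exceeded 2 in 7 of 28 members (25%) and in 56.1% of all genes. The 7 were Tia1, Usp10, G3bp2, Pabpc1, Pum2, Ybx1 and Fxr2. At the other end stood Nufip2, Elavl1 and Stau1, with ratios of 1.31, 1.33 and 1.35.

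**Figure D1:**
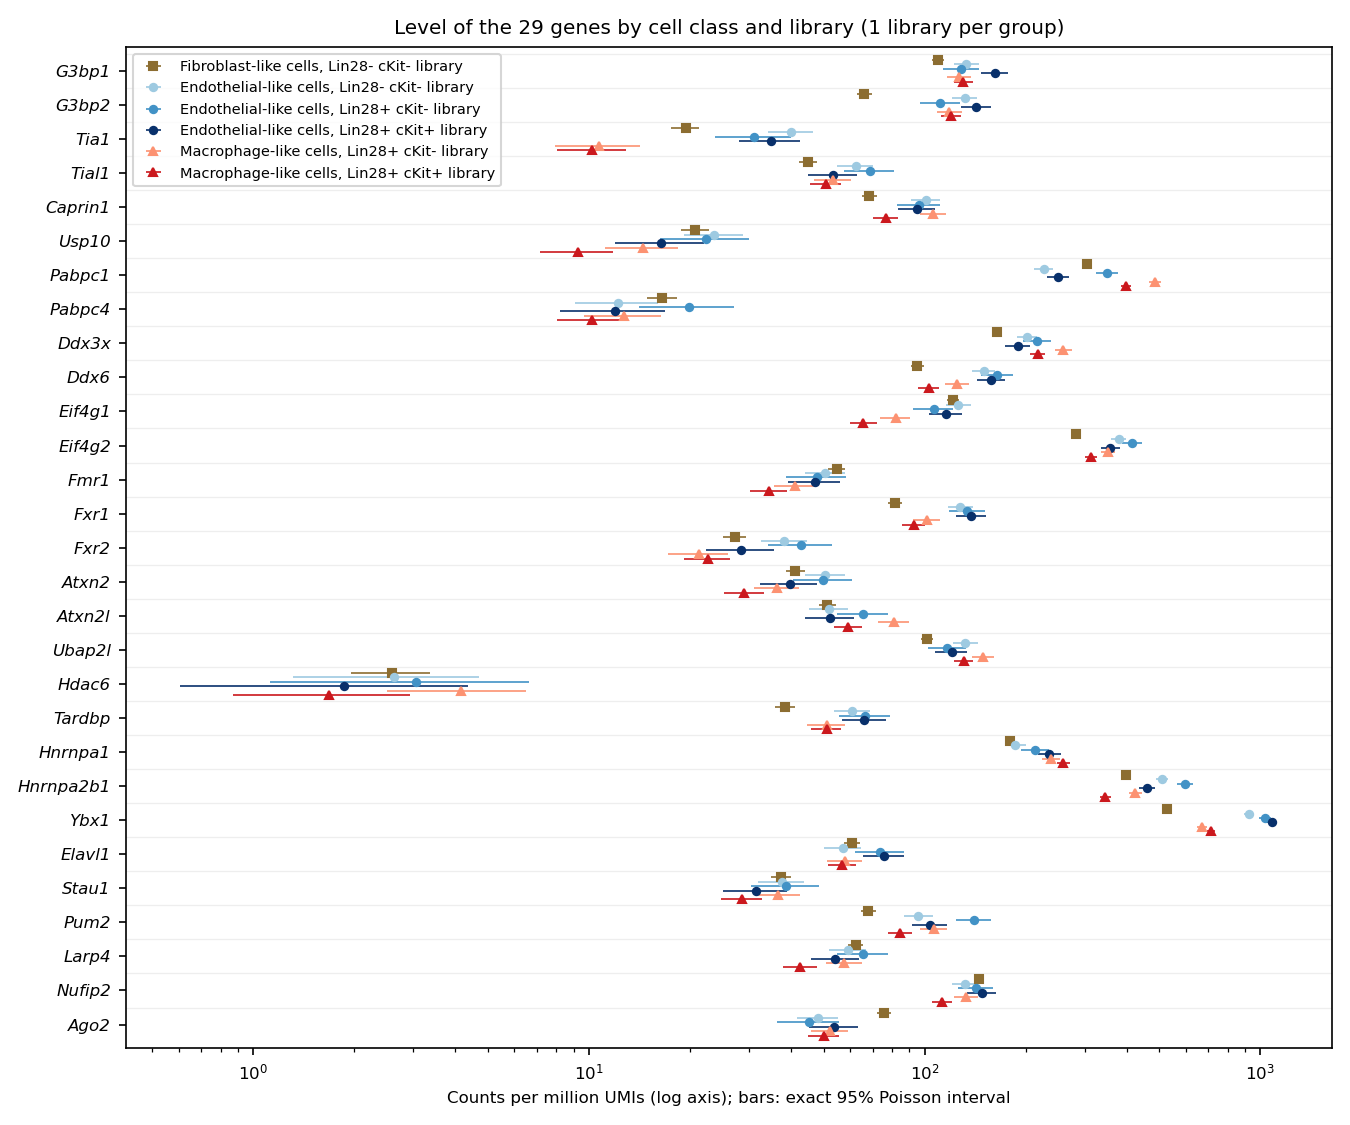
CPM (log axis) of the 29 genes in 6 populations, by class (square, fibroblast-like; circle, endothelial-like; triangle, macrophage-like) and library, with exact 95% Poisson intervals. Tia1 is at 31 to 39.9 CPM in endothelial-like, 19.4 in fibroblast-like and 10.2 and 10.7 in macrophage-like cells, while most other genes differ less than 2-fold.

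A member was called different in a comparison where the ratio of CPM was at least 1.5 in either direction and its exact 95% interval excluded 1, among genes with at least 20 UMIs in the pair. No correction for the number of genes was made, so each count is set beside the share of all genes called by the same rule. Over 12 comparisons there were 37 such calls, 9 higher and 28 lower. Of these, 7 held under every alternative scaling, filter and clustering that left enough UMIs of the gene, other than a stricter or looser fold. For Tia1 in macrophage-like cells that leaves out thinning, as given below.

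The first question was which members differed between cell classes inside 1 library, where preparation and sequencing were shared. In the Lin28-negative library, fibroblast-like cells had 6 members lower and 1 higher than endothelial-like cells, of 29 measured. That is 24.1% of members, while the same rule called 47.0% of 12483 genes (21.4% higher and 25.7% lower). The members' median log2 ratio was -0.30 and that of all genes -0.10. Median depth also differed, 10983.5 UMIs per fibroblast-like and 4057 per endothelial-like cell, and endothelial-like cells there held 4137 CPM of summed fibroblast markers. With every cell thinned to 1000 UMIs, 0 members were higher and 7 lower, with the Ago2 call lost. With the estimated free RNA subtracted, 1 was higher and 7 lower.

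In macrophage-like against endothelial-like cells of the Lin28+/cKit- library, 0 members were higher and 5 lower of 29, beside 54.2% of 10441 genes called (20.4% higher and 33.8% lower). In the Lin28+/cKit+ library 1 was higher and 5 lower of 28, beside 57.6% of 11003 (20.1% higher and 37.5% lower). The medians of the members, -0.24 and -0.32, were close to those of all genes, -0.30 and -0.37. Scaling by TMM, a method that sets the trimmed mean of the log ratios to 0, moved both all-gene medians by 0.37 and 0.45 on the log2 scale. Under it 4 members were higher (Pabpc1, Ddx3x, Atxn2l and Ubap2l) and 2 lower (Tia1 and Fxr2) in the first library. In the second, 4 were higher (Pabpc1, Ddx3x, Atxn2l and Hnrnpa1) and 1 lower (Tia1). In fibroblast-like against endothelial-like cells TMM moved the median by 0.20. It gave 3 higher (Ago2, Pabpc1 and Pabpc4) and 3 lower (G3bp2, Tia1 and Ybx1). Directions between classes are therefore read against the median of all genes.

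**Figure D2:**
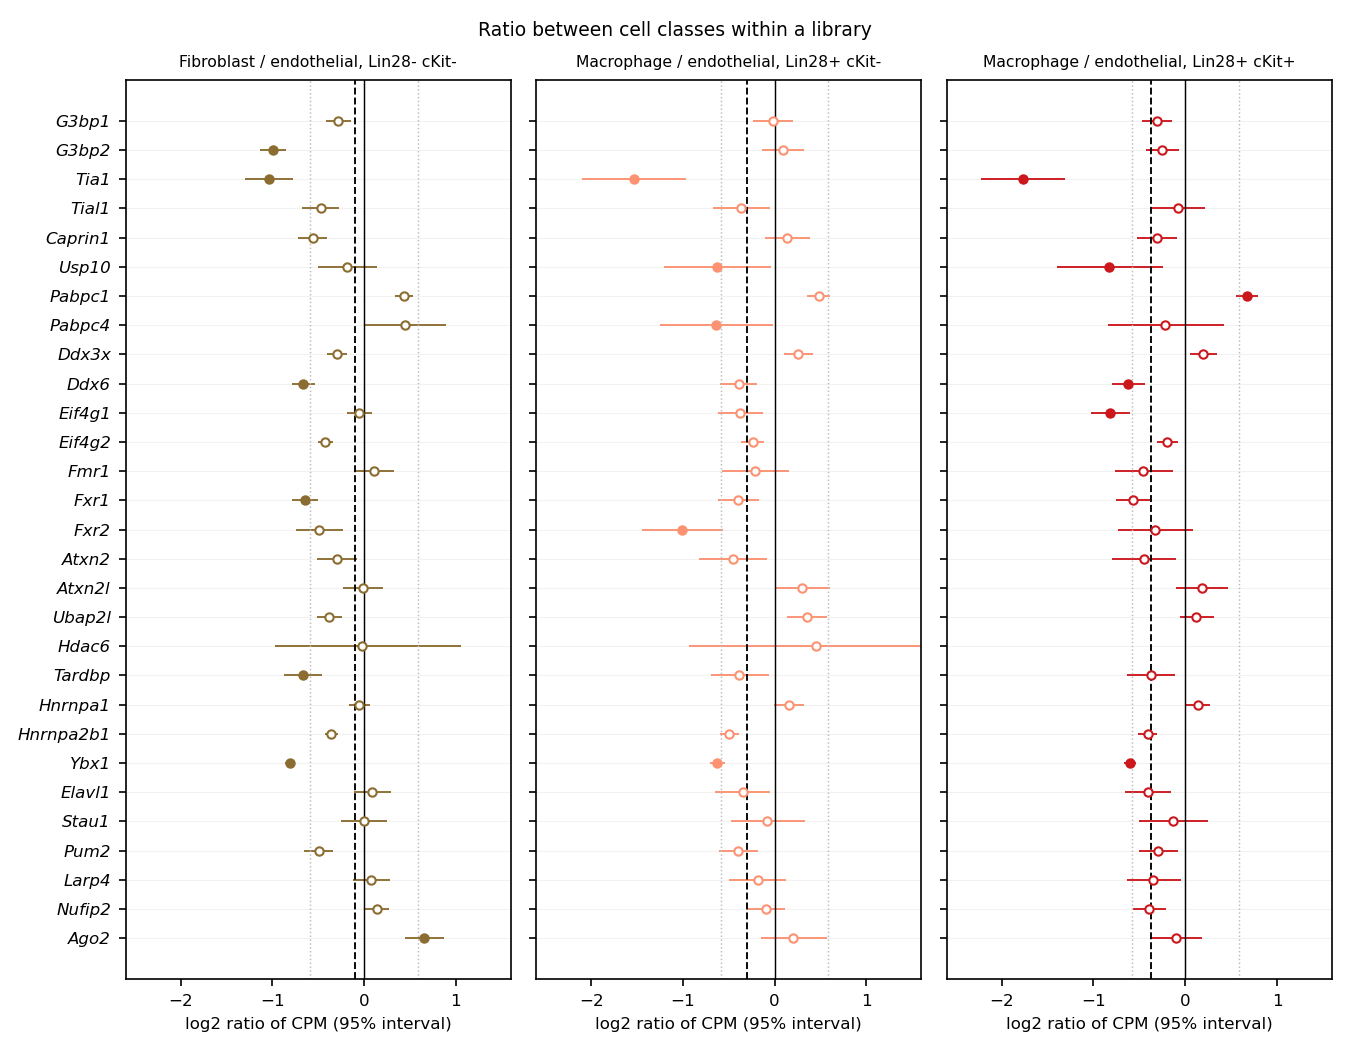
Log2 ratio of CPM for each member between cell classes within a library, with exact 95% intervals; filled points are called, the dashed line is the median of all genes and dotted lines mark a ratio of 1.5. Tia1 lies farthest to the left in all 3 panels, with G3bp2 close to it in fibroblast-like cells.

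Among the proteins that nucleate granules, G3bp2 was lower in fibroblast-like than in endothelial-like cells. G3bp1 (chr11:55469685-55504838) was at 110 CPM in fibroblast-like cells, at 133, 129 and 162 CPM in endothelial-like cells of the Lin28-negative, Lin28+/cKit- and Lin28+/cKit+ libraries, and at 127 and 131 CPM in macrophage-like cells of the latter pair. G3bp2 (chr5:92052146-92083719), in the same order, was at 66.1 CPM, at 132, 111 and 143 CPM, and at 119 and 120 CPM. Fibroblast-like cells were thus the lowest of the 6 populations for G3bp2. The 19 and 6 fibroblast-like cells of the Lin28-positive libraries, too few to compare, had 58.9 CPM (34.9 to 93.0, from 18 UMIs) and 73.6 CPM (23.9 to 172, from 5 UMIs). The ratio to endothelial-like cells was 0.502 (95% interval 0.455 to 0.555, from 1432 and 552 UMIs). The 4 fibroblast-like clusters held 64.0 to 68.6 CPM, the 8 endothelial-like clusters 107 to 182 CPM and the 4 macrophage-like clusters 80.9 to 125 CPM. A cluster was counted once per library in which it had at least 50 cells. Fibroblast-like and endothelial-like clusters did not overlap for 31.9% of 10238 genes, and fibroblast-like and macrophage-like clusters for 63.4% of 10444. The former clusters of the last pair were all Lin28-negative and the latter all Lin28-positive, so class and library cannot be told apart there. G3bp1 made up 62.4% of the UMIs of the pair in fibroblast-like cells (exact binomial interval 60.8% to 63.9%) and between 50.3% and 53.6% in the other 5 populations, whose intervals all ended below 58.2%.

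Of the partners of G3BP, Caprin1 and Ubap2l were not called between classes by CPM, and Usp10 was. Under TMM Usp10 was not called, and Ubap2l was higher in macrophage-like than endothelial-like cells of the Lin28+/cKit- library. Caprin1, whose protein binds G3BP and promotes granules, was at 68.4 CPM in fibroblast-like cells, at 101, 96.1 and 94.9 CPM in endothelial-like cells and at 106 and 76.7 CPM in macrophage-like cells. Ubap2l, which acts upstream of G3BP in assembly, had 102 CPM in fibroblast-like cells, between 117 and 132 CPM in endothelial-like cells and 150 and 131 CPM in macrophage-like cells. Usp10, a deubiquitinase that binds G3BP and opposes assembly, was at 20.7 CPM in fibroblast-like cells, at 23.6, 22.4 and 16.4 CPM in endothelial-like cells and at 14.5 and 9.25 CPM in macrophage-like cells. Its macrophage to endothelial ratio was 0.646 (0.435 to 0.969) and 0.563 (0.379 to 0.844) in the Lin28-positive pair of libraries. Both calls were lost under TMM, where the log2 ratios were -0.26 and -0.38.

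Tia1 gave the widest range of the set. Its protein and that of Tial1 have 3 RNA recognition motifs and regulate splicing and translation besides joining stress granules. Tia1 (chr6:86404219-86433405) stood at 19.4 CPM in fibroblast-like cells, at 39.9, 31 and 34.8 CPM in endothelial-like cells and at 10.7 and 10.2 CPM in macrophage-like cells. Over clusters with at least 50 cells the 3 classes did not overlap. Endothelial-like clusters ran from 27.8 to 50.3 CPM, fibroblast-like clusters from 17.8 to 25.8 CPM and macrophage-like clusters from 9.13 to 11.0 CPM. Those fibroblast-like clusters were all Lin28-negative and the macrophage-like ones all Lin28-positive, so class and library cannot be told apart between them. Between these classes 63.4% of 10444 genes did not overlap either. Endothelial-like clusters did not overlap with fibroblast-like ones for 31.9% of 10238 genes, or with macrophage-like ones for 43.4% of 9352. Endothelial-like clusters of under 50 cells lay in or below the fibroblast range. The cluster led by Serpina1b and Ptprr had 20.5 CPM (46 cells, 9 UMIs) in the Lin28+/cKit- and 15.1 CPM (38 cells, 4 UMIs) in the Lin28+/cKit+ library, where the endocardial-type cluster led by Npr3 and Nrg1 had 23.1 CPM (32 cells, 7 UMIs). Relative to endothelial-like cells of the same library the ratio was 0.487 (0.406 to 0.586) in fibroblast-like cells, and 0.346 (0.233 to 0.513) and 0.294 (0.214 to 0.404) in macrophage-like cells. These 3 calls held at a ratio of 2 and under every scaling, filter and clustering that left at least 20 Tia1 UMIs. Thinning left fewer than that in the macrophage comparisons, so it could not be read there.

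Tial1 (chr7:128439777-128461717) did not share this pattern. Its level was 44.9 CPM in fibroblast-like cells, 62.3, 68.7 and 53.4 CPM in endothelial-like cells, and 53.3 and 50.8 CPM in macrophage-like cells. Tia1 therefore made up 39.0%, 31.1% and 39.4% of the UMIs of the pair in endothelial-like cells, 30.2% in fibroblast-like cells, and 16.8% in macrophage-like cells of both libraries. The macrophage intervals, 12.7% to 21.6% and 13.4% to 20.6%, lay below all others, and the endothelial interval of the Lin28+/cKit- library, 24.7% to 38.1%, overlapped that of fibroblast-like cells, 27.8% to 32.7%. The 18 macrophage-like cells of the Lin28-negative library were below the size needed for a comparison, and 4 of them, from a cycling cluster, went against the name, with 26.1 CPM of summed macrophage markers and 8150 CPM of endothelial ones. Among the 18, Tia1 had 7 UMIs (47.8 CPM, exact Poisson interval 19.2 to 98.6), 3 of them in 1 cell. Those cells also held 2426 CPM of summed endothelial markers, against 600 and 647 CPM in the macrophage-like cells of the other libraries.

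The share of cells with a Tia1 UMI was 17.7% of fibroblast-like, 15.4%, 19.9% and 18.6% of endothelial-like, and 15.6% and 10.2% of macrophage-like cells. After each cell was thinned to 1000 UMIs they were 1.96%, then 3.38%, 3.38% and 3.31%, then 1.09% and 0.164%. Thinning left out 9 of the fibroblast-like, 9, 4 and 6 of the endothelial-like and 1 and 0 of the macrophage-like cells as too shallow. The share of free RNA among all UMIs, estimated from markers of the other classes, was 9.06% in fibroblast-like, 8.28%, 3.47% and 6.61% in endothelial-like, and 6.09% and 8.50% in macrophage-like cells. The same shares for G3bp2 were 4.90% in fibroblast-like cells and 11.8% to 13.5% in the other populations, from 48.6% and 38.8% to 71.6% before thinning.

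**Figure D3:**
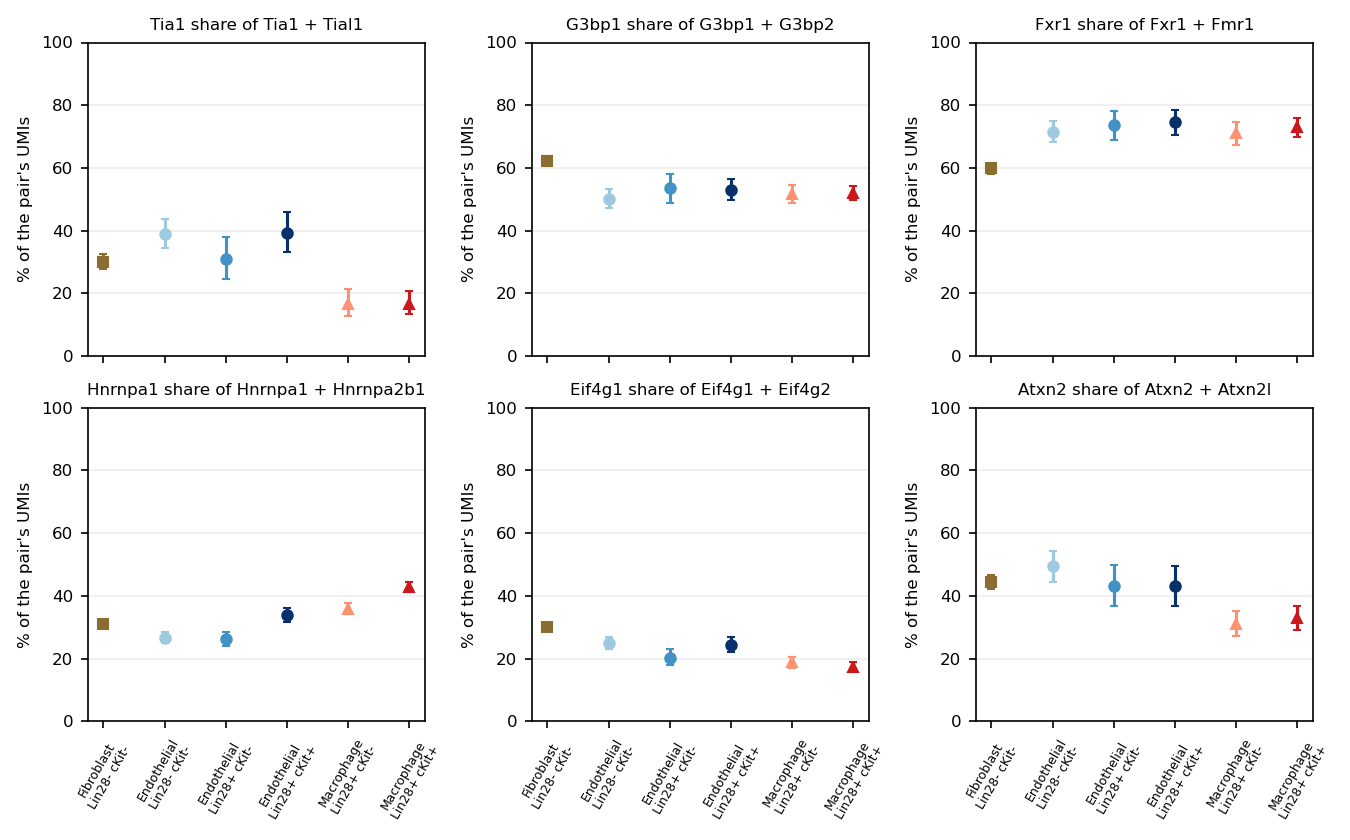
Share of the first gene in the summed UMIs of 6 paralog pairs (percent, with exact 95% binomial intervals) in fibroblast-like, endothelial-like and macrophage-like cells of each library. The Tia1 share is 16.8% in both macrophage populations, and fibroblast-like cells stand apart in the G3bp1 share (62.4%) and the Fxr1 share (59.9%).

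Among the factors that bind the ends of mRNA, Pabpc1 went the other way. Pabpc1, the main cytoplasmic poly(A)-binding protein, was at 305 CPM in fibroblast-like cells, at 226, 349 and 250 CPM in endothelial-like cells and at 487 and 398 CPM in macrophage-like cells. Among clusters of at least 50 cells in a library, the macrophage-like ones (392 to 547 CPM) lay above the 8 endothelial-like ones (200.2 to 357 CPM). Between these classes 43.4% of 9352 genes did not overlap. The macrophage to endothelial ratio was 1.6 (1.47 to 1.74) in the Lin28+/cKit+ library, and the call held under TMM but not between Folr2-type macrophages and the Car4 and Timp4 cluster alone, where the log2 ratio was 0.55. By CPM Pabpc1 was not called in the Lin28+/cKit- library, where endothelial-like cells were themselves higher, but under TMM it was. Pabpc4, a less abundant relative, ranged from 10.2 to 19.8 CPM over the 6 populations. It was called lower in macrophage-like cells of the Lin28+/cKit- library, 0.641 (0.420 to 0.988, from 58 and 39 UMIs), but not under TMM.

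Eif4g1, the scaffold of the cap-binding complex, had 122 CPM in fibroblast-like cells, 126, 106 and 116 CPM in endothelial-like cells, and 82.0 and 65.8 CPM in macrophage-like cells. The ratio of macrophage-like to endothelial-like cells was 0.568 (0.491 to 0.657) in the Lin28+/cKit+ library, a call lost under TMM at -0.37 on the log2 scale. Its relative Eif4g2, which lacks the binding site for the cap-binding protein eIF4E, ranged only from 282 to 416 CPM. The Eif4g1 share of the pair's UMIs was 30.1% in fibroblast-like cells, 25.0%, 20.4% and 24.5% in endothelial-like cells, and 18.9% and 17.4% in macrophage-like cells.

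Of the DEAD-box helicases, Ddx6 drives translational repression and P-body assembly, and Ddx3x helps unwind structured mRNA for translation. Ddx6 was at 95.2 CPM in fibroblast-like cells, at 150, 164 and 158 CPM in endothelial-like cells, and at 125 and 103 CPM in macrophage-like cells. It was called lower in fibroblast-like cells, 0.633 (0.578 to 0.693), and in macrophage-like cells of the Lin28+/cKit+ library, 0.651 (0.577 to 0.736); TMM ended both calls at -0.46 and -0.17 on the log2 scale. Ddx3x was lowest in fibroblast-like cells at 164 CPM and highest in macrophage-like cells of the Lin28+/cKit- library at 259 CPM. It was not called between classes, but TMM gave macrophage to endothelial log2 ratios of 0.63 and 0.65 for Ddx3x, past the threshold in both libraries.

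The FMRP family binds mRNA and restrains its translation. Fxr1 was at 81.5 CPM in fibroblast-like cells, at 128, 134 and 138 CPM in endothelial-like cells and at 102 and 92.8 CPM in macrophage-like cells. Its fibroblast to endothelial ratio was 0.638 (0.579 to 0.704), a call lost under TMM at -0.45. Fmr1 itself, between 34.3 and 54.7 CPM, was highest in fibroblast-like cells, so the Fxr1 share of Fxr1 and Fmr1 UMIs was 59.9% there (58.1% to 61.6%) and 71.1% to 74.5% in the other 5 populations. Fxr2 was at 27.2 CPM in fibroblast-like cells, at 38.2, 42.7 and 28.4 CPM in endothelial-like cells, and at 21.3 and 22.6 CPM in macrophage-like cells. Its macrophage to endothelial ratio in the Lin28+/cKit- library was 0.498 (0.368 to 0.675), a call lost only when cells were thinned.

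Among the nuclear and shuttling proteins, Ybx1, a cold-shock domain protein that packages mRNA, was at 527 CPM in fibroblast-like cells, at 925, 1033 and 1083 CPM in endothelial-like cells and at 670 and 713 CPM in macrophage-like cells. The fibroblast to endothelial ratio was 0.570 (0.55 to 0.592) and held under every scaling, filter and clustering tried. Within classes the spread was wide, from 440 to 703 CPM over fibroblast-like and from 579 to 1143 CPM over endothelial-like clusters, so the classes overlapped. The macrophage to endothelial ratios, 0.648 (0.613 to 0.686) and 0.659 (0.629 to 0.690), did not hold under TMM. Tardbp, which encodes TDP-43, was at 38.4 CPM in fibroblast-like cells and between 51 and 66.6 CPM elsewhere. Its fibroblast to endothelial ratio, 0.630 (0.547 to 0.728), was also lost under TMM, at -0.46. Hnrnpa1, a splicing factor, ranged from 180 to 259 CPM and Hnrnpa2b1 from 346 to 597 CPM, and neither was called between classes by CPM. Under TMM Hnrnpa1 was higher in macrophage-like than endothelial-like cells of the Lin28+/cKit+ library. Hnrnpa1, Ybx1 and Pabpc1 have many processed pseudogenes, so their counts are uncertain where reads could be split.

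The remaining members gave 1 call between classes by CPM. Ago2, the slicing Argonaute of RNA interference, had 75.6 CPM in fibroblast-like cells and 45.3 to 53.8 CPM in the other 5 populations. The fibroblast to endothelial ratio was 1.57 (1.36 to 1.83), and the fibroblast-like clusters (66.8 to 81.2 CPM) lay above the endothelial-like ones (23.1 to 60.6 CPM). Between these classes 31.9% of 10238 genes did not overlap. Thinning to 1000 UMIs per cell lowered the log2 ratio of Ago2 to 0.43, which ended the call. Elavl1, which encodes the mRNA-stabilizing protein HuR, ranged from 56.8 to 75.5 CPM, Stau1, a double-stranded RNA-binding protein, from 28.6 to 38.7 CPM, and Nufip2, an FMRP partner, from 113 to 148 CPM. Pum2, a translational repressor of the Pumilio family, ranged from 67.9 to 140 CPM, and Larp4, which binds poly(A) and PABP, from 42.6 to 65.6 CPM. Atxn2 and Atxn2l, a pair of ataxin-2 proteins that bind PABP, ranged from 29 to 50.6 CPM and from 51.3 to 80.9 CPM. Under TMM Atxn2l was higher in macrophage-like than endothelial-like cells of both Lin28-positive libraries. The Atxn2 share of that pair was 31% and 32.9% in macrophage-like cells and 43.1% to 49.4% elsewhere.

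Counted over clusters, 6 of 28 members did not overlap between the fibroblast-like and endothelial-like classes, where 31.9% of 10238 genes did not. They were G3bp2, Tia1, Ddx6, Eif4g2 and Fxr1, with lower CPM in fibroblasts, and Ago2, higher. Of these, Ddx6, Eif4g2 and Fxr1 were not called between the whole classes under TMM. Between macrophage-like and endothelial-like clusters 5 of 28 did not overlap, where 43.4% of 9352 genes did not. These were Tia1, Ddx6, Eif4g1 and Fxr1, with lower CPM in macrophages, and Pabpc1, higher. The median log2 ratio of all genes was itself -0.30 and -0.37 between these classes in the Lin28-positive pair of libraries. Of the genes with lower CPM only Tia1 was called lower under TMM. Between macrophage-like and fibroblast-like clusters, which come from different libraries, 14 of 28 did not overlap, where 63.4% of 10444 genes did not. Clusters of 1 library are not replicates.

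The second question was whether surface Lin28 or cKit went with a difference inside a cell class. In endothelial-like cells of the Lin28+/cKit- against the Lin28-negative library, 2 members of 28 were higher and 0 lower, while 10.9% of 10286 genes were called in either direction, 3.95% higher and 6.92% lower. The members' median log2 ratio was 0.12, that of all genes -0.04. The 2 were the poly(A)-binding proteins. Pabpc1 was at 349 against 226 CPM, a ratio of 1.55 (1.40 to 1.71, from 687 and 947 UMIs), and Pabpc4 at 19.8 against 12.2 CPM, a ratio of 1.63 (1.05 to 2.52, from 39 and 51 UMIs), which thinning or removal of cells with high doublet scores ended. Pabpc1 was higher in each of 3 endothelial-like clusters with at least 30 cells in both libraries, 1 of which had only 46 cells in the Lin28+/cKit- library. The ratios were 1.63 (1.41 to 1.90) in the cluster led by Cldn5, Car4 and Timp4, 1.36 (1.06 to 1.72) in the arterial-type cluster led by Sema3g and Hey1, and 1.51 (1.21 to 1.87) in the cluster led by Serpina1b and Ptprr.

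Depth and free RNA moved with this comparison. Median depth was 7710 UMIs per endothelial-like cell in the Lin28+/cKit- library against 4057 in the Lin28-negative one, and summed fibroblast markers were 212 against 4137 CPM. After thinning to 1000 UMIs per cell, 27.0% (21.5% to 33.1%) against 18.9% (16.4% to 21.6%) of cells had a Pabpc1 UMI, where 82.2% and 54.4% had one before. The thinned Pabpc1 ratio was 0.58 on the log2 scale, just under the threshold for a call, and it was 0.65 with the estimated free RNA subtracted. Pabpc1 in Lin28+/cKit+ endothelial-like cells was at 250 CPM, close to the 226 CPM of the Lin28-negative library.

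Endothelial-like cells of the Lin28+/cKit+ against the Lin28-negative library gave 0 calls of 28 members, beside 8.89% of 10493 genes (2.41% higher and 6.48% lower). The members' median, -0.05, equalled that of all genes. Among the ratios furthest from 1 were those of Usp10, at 16.4 against 23.6 CPM, Fxr2, at 28.4 against 38.2 CPM, and Elavl1, at 75.5 against 57.1 CPM. These 2 comparisons share the Lin28-negative cells. G3bp1, G3bp2, Tia1 and Tial1 were called in neither.

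Between the Lin28-positive pair, endothelial-like cells of the cKit-positive library had 0 members higher and 2 lower than those of the cKit-negative library, of 28, beside 7.02% of 9646 genes in either direction, 3.55% higher and 3.47% lower. Pabpc4 was at 12 against 19.8 CPM, a ratio of 0.603 (0.366 to 0.987), and Fxr2 at 28.4 against 42.7 CPM, a ratio of 0.665 (0.481 to 0.917). TMM ended both calls. Pabpc1 had a ratio below the fold for a call, 250 against 349 CPM, and G3bp1 and G3bp2 were at 162 against 129 and at 143 against 111 CPM.

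In macrophage-like cells of the same pair 0 members were higher and 2 lower of 29, beside 6.32% of 10676 genes, 1.65% higher and 4.67% lower. Usp10 was at 9.25 against 14.5 CPM, a ratio of 0.639 (0.448 to 0.913, from 66 UMIs in each library). Hdac6 was at 1.68 against 4.17 CPM, a ratio of 0.404 (0.179 to 0.876), which rests on 12 and 19 UMIs. The Usp10 call was lost under TMM at -0.54, and the Hdac6 call in Folr2-type macrophages alone at -0.79 and without the cells of highest doublet score at -1.06 on the log2 scale. The members' median log2 ratio was -0.25, against -0.09 for all genes, and 24 of the 29 members had ratios below 1. Ratios above 1 were found for 17.2% of members and 37.8% of all genes. The 2 libraries differed in macrophage type: 207 Folr2-type and 60 Folr2-low inflammatory cells of 275 against 337 and 259 of 609. Median depth was 13868 UMIs per cell in the cKit-negative and 9970 in the cKit-positive library.

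**Figure D4:**
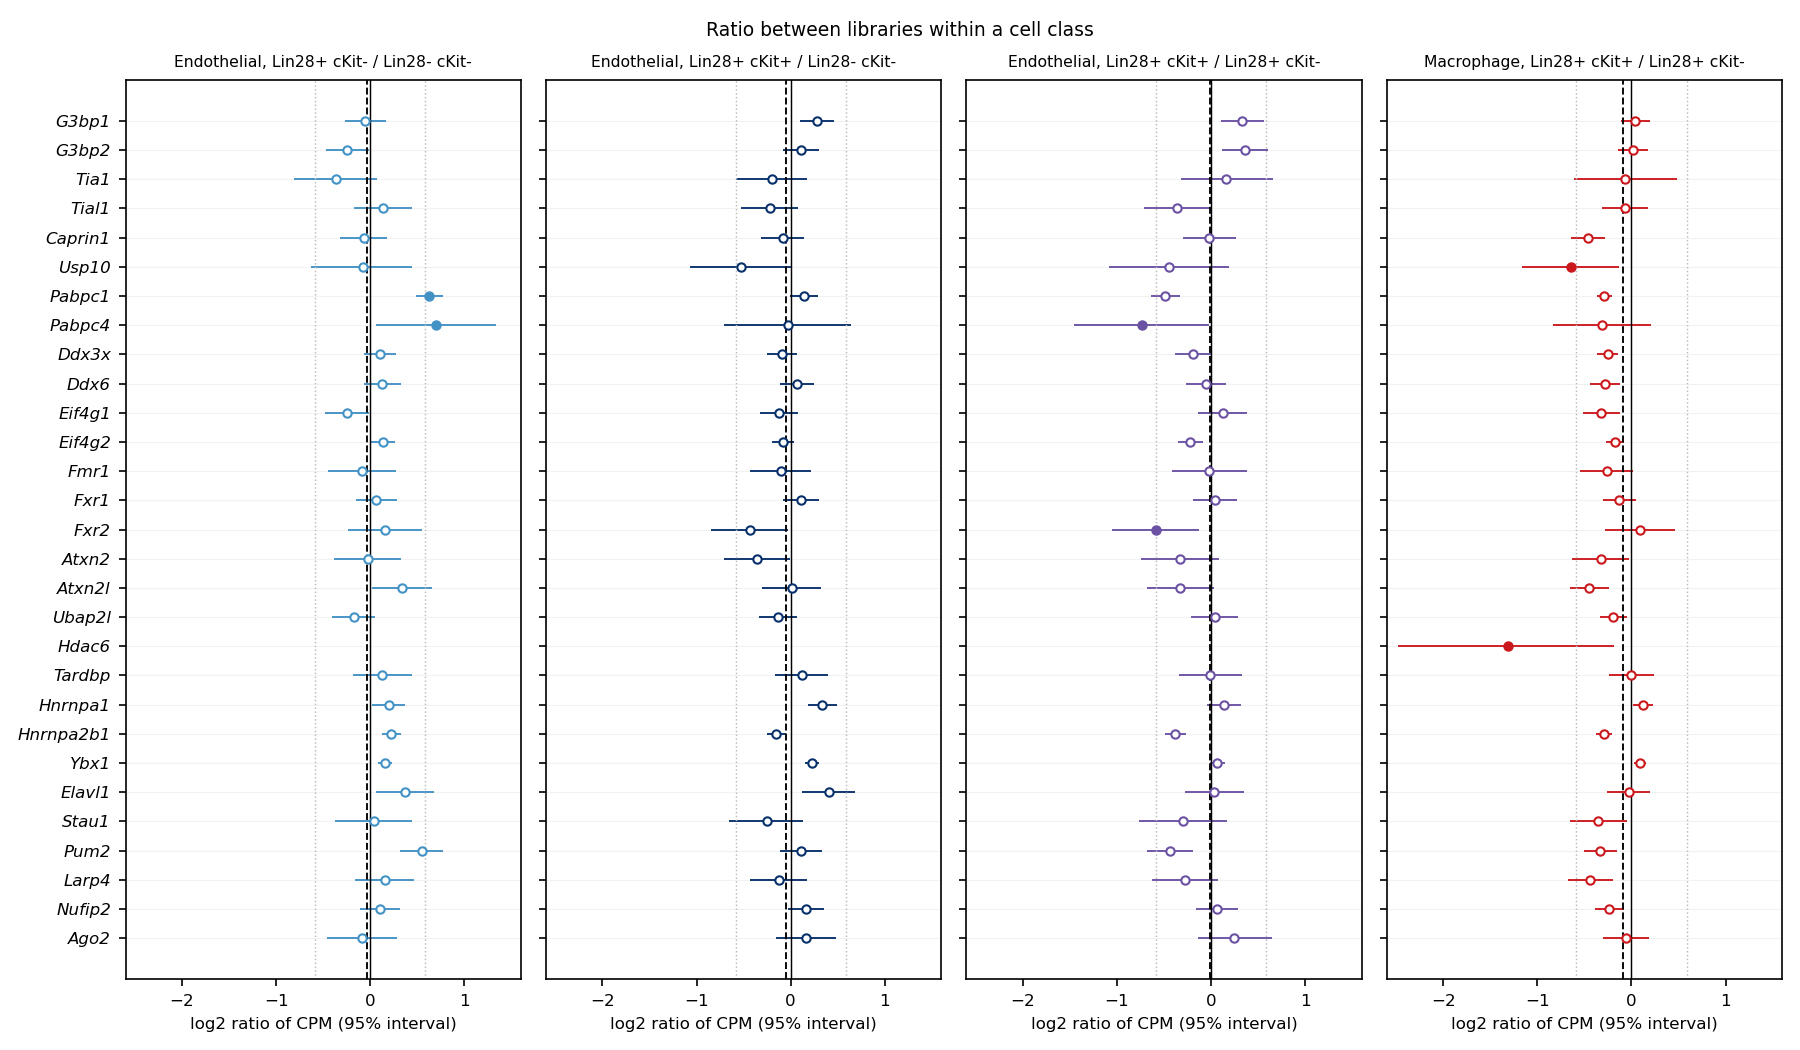
Log2 ratio of CPM for each member between libraries within a cell class, with exact 95% intervals; filled points are called, the dashed line is the median of all genes and dotted lines mark a ratio of 1.5. Most members lie between the dotted lines, and Pabpc1 and Pabpc4 lie beyond them in Lin28+/cKit- endothelial-like cells.

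Transcript length moved with the comparison of the Lin28-positive pair, as it did with those between cell classes above. Members have long transcripts, with a median of 4451 bases for the longest annotated transcript against 2863 for all matched gene names. In endothelial-like cells the median log2 ratio of all genes (cKit-positive over cKit-negative) was 0.13 for transcripts of at most 1 kb and -0.18 for those over 8 kb; in macrophage-like cells it was 0.06 and -0.23. Read within length bins, members lay below genes of like length mainly at 2 to 4 kb. The 4 of 3 to 4 kb (Fxr1, Pabpc4, Stau1 and Usp10) had a median of -0.33 where all genes had -0.11 in macrophage-like cells, and -0.37 where all had -0.07 in endothelial-like cells. The 2 of 2 to 3 kb (Fxr2 and Pabpc1) had -0.54 where all had 0.03 in endothelial-like cells, and -0.10 where all had -0.06 in macrophage-like cells. The 12 members of 4 to 6 kb had a median of -0.24 in macrophage-like cells where all 2162 genes of that length had -0.19. The 7 members of 6 to 8 kb had -0.28 where 844 genes had -0.21. In endothelial-like cells members of these lengths lay above genes of like length. The 11 of 4 to 6 kb had 0.03 where all had -0.09, and the 7 of 6 to 8 kb had -0.06 where all had -0.13. Ago2, the 1 member over 8 kb, had 0.25 where all had -0.18. After each gene was centred on the 500 genes nearest in length, the members' median in macrophage-like cells was -0.07 and only Hdac6 stayed called; in endothelial-like cells it was -0.02 with 0 calls. The 3 members of 1 to 2 kb did not move together in macrophage-like cells: Hnrnpa1 was at 259 against 238 CPM, Ybx1 at 713 against 670 CPM and Hnrnpa2b1 at 346 against 424 CPM.

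**Figure D5:**
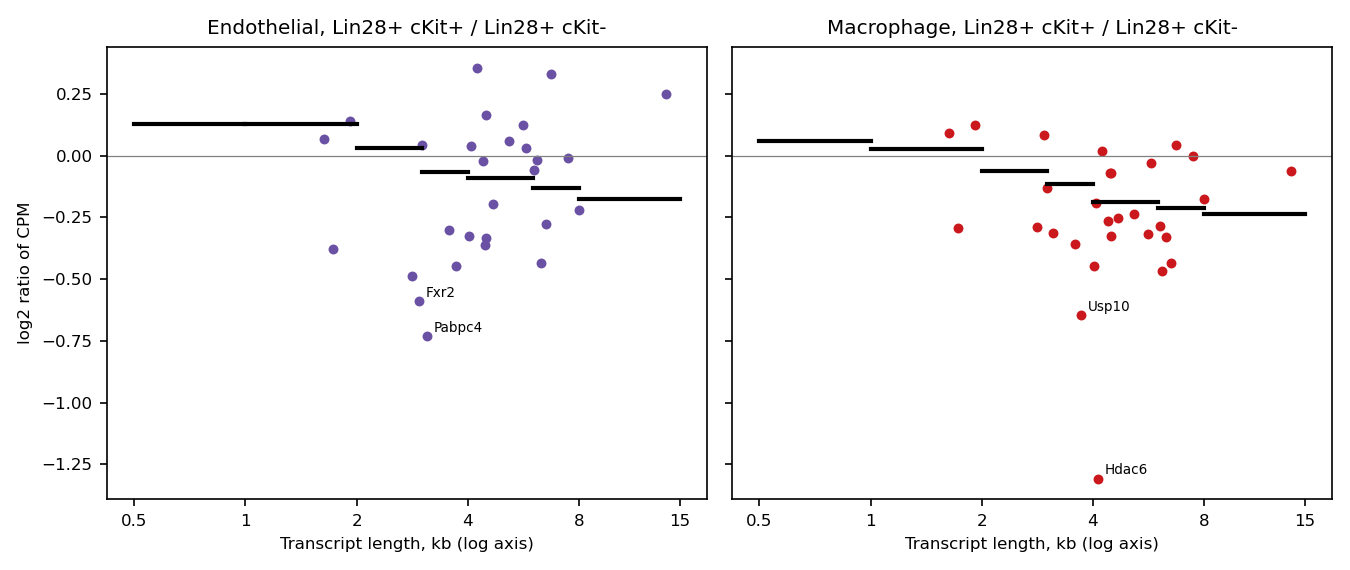
Log2 ratio of CPM (cKit-positive over cKit-negative, Lin28-positive libraries) against transcript length in kb (log axis) for the members (points) in endothelial-like and macrophage-like cells; black bars are medians of all genes in bins of length, the first drawn from 0.5 kb. From the shortest to the longest bin the bars go from 0.13 to -0.18 in endothelial-like and from 0.06 to -0.23 in macrophage-like cells.

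Within the macrophages, Folr2-low inflammatory cells (led by Il1b, Mmp13 and Ccl4) were set against Folr2-type cells (led by Retnla, Folr2 and F13a1). In the Lin28+/cKit- library 0 members were higher and 3 lower of 28, beside 13.0% of 9007 genes (3.28% higher and 9.75% lower). Caprin1 was at 63.1 against 115 CPM, a ratio of 0.549 (0.396 to 0.746), Larp4 at 37.0 against 62.3 CPM, 0.595 (0.383 to 0.888), and G3bp2 at 80.9 against 125 CPM, 0.645 (0.484 to 0.848). Only 60 inflammatory cells were present there, and thinning ended the Caprin1 and G3bp2 calls. In the Lin28+/cKit+ library 1 member of 28 was lower, beside 13.3% of 9643 genes (2.84% higher and 10.4% lower). It was Larp4, at 31.5 against 49.6 CPM, 0.635 (0.483 to 0.828). Larp4 thus had lower CPM in the inflammatory cells of both libraries, but centring on genes of like length ended both calls. In the Lin28+/cKit+ library the call was also lost under TMM, at -0.50, by the mean over cells and by thinning. Under TMM the split for the Lin28+/cKit- library was 2 higher and 2 lower. The members' medians, -0.11 and -0.15, were nearer to 0 than those of all genes, -0.18 and -0.19.

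Whole libraries differ in cell type as counted above. Against the Lin28-negative library, the Lin28+/cKit- library had 4 members higher and 0 lower of 29, beside 47.5% of 13765 genes (22.1% higher and 25.4% lower). Pabpc1 was at 440 against 280 CPM, 1.58 (1.51 to 1.64), Pum2 at 113 against 73.3 CPM, 1.54 (1.42 to 1.67), Atxn2l at 75.5 against 49.4 CPM, 1.53 (1.39 to 1.68), and Ddx3x at 241 against 159 CPM, 1.51 (1.44 to 1.6). The Pabpc1 call held under all 9 alternatives to scaling and filters. That of Pum2 was lost in 1 (log2 0.47 by the mean over cells), that of Atxn2l in 3 (down to 0.42) and that of Ddx3x in 4 (down to 0.46), 1 of them the removal of a single cell (0.58). The Lin28+/cKit+ library had 1 higher and 2 lower, beside 49.5% of 13833 genes (20.5% higher and 29% lower). G3bp2 was at 124 against 77.4 CPM, 1.61 (1.5 to 1.72), Usp10 at 11.2 against 20.8 CPM, 0.540 (0.440 to 0.657), and Fmr1 at 36.7 against 55.2 CPM, 0.666 (0.595 to 0.744). The G3bp2 call held under all 9 alternatives and that of Usp10 under 8, while that of Fmr1 held under only 3, with log2 ratios between -0.45 and -0.59. Under TMM this became 2 higher and 1 lower. Between the Lin28-positive pair, 0 were higher and 2 lower in the cKit-positive library, beside 9.79% of 12200 genes (1.77% higher and 8.02% lower). They were Usp10, 0.626 (0.484 to 0.809), and Hdac6, 0.465 (0.237 to 0.891), lost in 4 of 9 and in 1 of 7 alternatives. In whole libraries, as in any summed sample, fewer cells of a type and less RNA per cell cannot be told apart.

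Other genes of the pathway were read from 5 lists. In the eIF2 alpha list (16 genes), which holds the kinases and phosphatase that switch the stress response on and off, fibroblast-like cells had 4 higher and 3 lower than endothelial-like cells. Over all genes the same rule called 21.4% higher and 25.7% lower there. Ppp1r15a, which encodes the phosphatase subunit GADD34, was at 487 against 191 CPM, and Eif2ak2, the kinase PKR, at 13.1 against 28.9 CPM. Macrophage-like cells had 3 higher and 5 lower in the Lin28+/cKit- library (all genes, 20.4% and 33.8%) and 3 higher and 7 lower in the cKit-positive one (all genes, 20.1% and 37.5%). Ppp1r15a was at 1023 against 267 CPM and at 1090 against 228 CPM, and Eif2ak2 at 15.8 against 31 CPM and at 13.2 against 31.4 CPM. Against these shares, the P-body and deadenylation list (23 genes) had 1 higher and 7 lower in fibroblast-like cells, which is near the background for lower genes, with Cnot6l, a deadenylase, at 39.6 against 91.5 CPM. In macrophage-like cells 8 and 7 of its genes were lower, near or below the background, and 0 higher, with Tnrc6c, an Argonaute partner, at 64.7 against 155 CPM and at 74.7 against 159 CPM.

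The cap-binding list (26 genes) had 2 higher and 2 lower in fibroblast-like cells, and 4 higher and 5 lower, then 3 higher and 6 lower, in macrophage-like cells. For this list and those that follow, the rule called 47.0%, 54.2% and 57.6% of all genes in the same 3 comparisons. Mknk1, a kinase of eIF4E, was at 48.7 against 9.16 CPM and at 59.2 against 10.5 CPM. Of 22 genes for hnRNPs and other nuclear RNA-binding proteins 0 were higher, and 3, 4 and 2 were lower in the 3 class comparisons. The list of 38 other granule proteins had 8 higher and 4 lower of 37 measured in fibroblast-like cells, and 6 higher and 6 lower of 35, then 4 higher and 8 lower of 36, in macrophage-like cells. In it, Zfp36, which encodes tristetraprolin and promotes decay of AU-rich mRNAs, was at 1083 against 427 CPM in fibroblast-like cells and at 4512 against 756 CPM and 4084 against 540 CPM in macrophage-like cells.

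Within endothelial-like cells the same rule called 10.9%, 8.89% and 7.02% of all genes in the 3 library comparisons, and 6.32% in macrophage-like cells. Against the Lin28-negative library the cKit-negative Lin28-positive cells had Pcbp2, Zfp36 and Cpeb4 higher and 0 genes lower; Zfp36 was at 756 against 427 CPM and Cpeb4, a cytoplasmic polyadenylation factor, at 62.1 against 37.5 CPM. In the cKit-positive cells 0 genes were higher, and Edc3 and Edc4, cofactors of mRNA decapping, were lower, at 10.1 against 16.7 CPM and at 11.6 against 18.1 CPM. Between the Lin28-positive pair the lists gave 1 gene higher and 4 lower in endothelial-like cells, and 0 higher and 1 lower in macrophage-like cells. Cpeb4 was lower in the cKit-positive library in both classes, at 35.1 against 62.1 CPM in endothelial-like and 28.3 against 43.2 CPM in macrophage-like cells, and Eif2ak3, the kinase PERK, was at 9.34 against 19.8 CPM in endothelial-like cells.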

How the data were processed

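Droplet-based 3' single-cell RNA was measured in 3 sorted populations, 1 library each. Per the submitters' processing notes, Cell Ranger (no version given), Seurat 4.0.2 and the mouse build mm10 were used; no source used here states their filters on cells. The deposited values are natural log values of 1 plus a gene's UMIs scaled to 10000 UMIs per cell. Undoing the log gave whole UMIs for 100% of values within 0.01 of a whole number, so the tests planned for summed UMIs were kept. The tables' totals were 34031955, 7401174 and 10400648 UMIs, and every cell had at least 500. Cells were clustered with scanpy 1.11.5 (2000 variable genes less 3 listed genes, 30 components, 15 neighbours, Leiden 0.10.2, resolution 1), without integration. A cluster kept a type's name where at least 3 markers and most of its list were present and no second type was; others, among them 1 fibroblast-marker cluster of 824 cells led by haemoglobin genes, stayed unnamed. A doublet caller (Scrublet) marked 7 of 3976, 10 of 681 and 7 of 1176 cells, too few overall to count as having worked, so doublets were not removed in the main values. Ratios carry exact conditional binomial intervals, levels exact Poisson and shares exact Clopper-Pearson intervals, all at 95% and for counting error only. Ratios and calls were tested on simulated data drawn with counting error only, which held no spread between cells, libraries or animals. Transcript lengths are from GENCODE vM21 (98.7% of names matched). All members are named, with the called genes among the 3 largest ratios in each direction of each pathway list; 1 gene is not reported here. The members and lists were chosen with earlier results of these data known.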

Additional observations from a re-analysis of the deposited data

How the results depend on the processing

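With 1 library per group, no replicate was left out and nothing was tested. No paired analysis was possible because each group has 1 library. Depth limits Hdac6, Pabpc4 and Usp10 most, and intervals leave out the spread between animals. No called member turned direction under any alternative run. Of the recomputed counts of members called, 112 stayed within 1.5 times the main one and 53 did not.

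The counts of members called were, in order, 2, 0 and 2 in endothelial-like cells (Lin28+/cKit- over Lin28-negative, Lin28+/cKit+ over Lin28-negative, Lin28+/cKit+ over Lin28+/cKit-), 2 in macrophage-like cells, 7 for fibroblast-like over endothelial-like cells, 5 and 6 for macrophage-like over endothelial-like cells (Lin28+/cKit-, then Lin28+/cKit+), 4, 3 and 2 for whole libraries, and 3 and 1 for inflammatory over Folr2-type macrophages. In the same order, a looser threshold, the higher level at least 25% above the lower, gave 5, 4, 8, 8, 16, 16, 14, 15, 15, 9, 8 and 4. A ratio of at least 2 gave 0, 0, 0, 1, 1, 2, 1, 0, 0, 1, 0 and 0. At least 100 UMIs left 1 in endothelial-like cells of Lin28+/cKit- over Lin28-negative, and 1 each in endothelial-like cells, macrophage-like cells and whole libraries of the Lin28+ pair.

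TMM left 0 in endothelial-like cells, 1 in macrophage-like cells and 1 in whole libraries of the Lin28+ pair, and 0 for inflammatory macrophages of Lin28+/cKit+. It moved the members' median log2 ratio to -0.10 in fibroblast-like over endothelial-like cells, turned it to 0.13 and 0.13 in macrophage-like over endothelial-like cells, and moved it to 0.24 in whole libraries of Lin28+/cKit+ over Lin28-negative. Centring on genes of like length left 0, 1 and 0 in the Lin28+ pair, 4 for fibroblast-like cells and 0 for inflammatory macrophages of Lin28+/cKit+. The medians became -0.088 for fibroblast-like, 0.17 and 0.12 for macrophage-like over endothelial-like cells, 0.29 in whole libraries of Lin28+/cKit+ over Lin28-negative, and 0.0038 in whole libraries of the Lin28+ pair. Both scalings act by moving all genes of a comparison or a length together.

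Thinning left 1 in macrophage-like cells, 2 for macrophage-like over endothelial-like cells of Lin28+/cKit-, and gave 2 for inflammatory macrophages of Lin28+/cKit+; the median of whole libraries of Lin28+/cKit+ over Lin28-negative became -0.033. With the top 5% of cells by doublet score removed, the counts were 1 and 1 in endothelial-like cells of Lin28+/cKit- over Lin28-negative and of the Lin28+ pair, 1 in macrophage-like cells, 3 for macrophage-like over endothelial-like cells of Lin28+/cKit-, and 3 for inflammatory macrophages of Lin28+/cKit+. The mean over cells gave 1 in endothelial-like cells of the Lin28+ pair, 3 for macrophage-like over endothelial-like cells of Lin28+/cKit- and 0 for inflammatory macrophages of Lin28+/cKit+. In endothelial-like cells of the Lin28+ pair, leaving mitochondrial, ribosomal and haemoglobin genes out of the totals, Leiden resolution 0.5 and the Car4 and Timp4 cluster alone each gave 1. Folr2-type macrophages alone gave 1 in that pair. Leaving out the cell with the most member UMIs and subtracting free RNA each gave 2 for inflammatory macrophages of Lin28+/cKit+. Apart from these scalings and filters, the cause was not tested.

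An alternative chosen after seeing the data added the haemoglobin-led cluster to the fibroblast-like class: the median was -0.26 and the count 1 higher and 6 lower. Leiden resolution 0.5 was not run for the macrophage subtypes, which then formed 1 cluster.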
